A study of Drosophila melanogaster with 2 samples.

Results

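The genes kirre, rst, sns, hbs, Ten-a and Ten-m, 6 of the 13945 protein-coding genes on the main chromosome arms of Drosophila melanogaster, were examined for binding of the transcription factor Lola. kirre and Ten-a had been chosen by their many binding summits in these data, and the other 4 as their paralogs or binding partners. The counts of summits in these genes are therefore a description, and no test was made of them. Binding had been mapped by chromatin immunoprecipitation and sequencing (ChIP-seq) in embryos aged 0 to 12 h, both sexes together, taken as whole organisms. All embryos came from 1 transgenic line that stably expressed the RJ form of Lola with GFP fused to its C terminus, and the precipitation used an antibody to GFP, although the antibody field of the labels reads lola. The 2 samples were biological replicates 1 and 3 of this 1 group. No second genotype or mock precipitation was analysed here, and the labels do not say which promoter drives the fusion protein. Since whole embryos were used, strong binding in few cells and weak binding in many cannot be told apart.

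Kirre (also called Duf) and Rst are paralogous immunoglobulin-family receptors on founder myoblasts, the cells that seed each larval muscle. They bind Sns and its paralog Hbs, which sit on fusion-competent myoblasts, and this contact starts the fusion of the 2 cell types. Ten-a and Ten-m are teneurins, large transmembrane proteins with EGF repeats that match synaptic partners in the fly brain and at the neuromuscular junction. Lola is a BTB and zinc-finger factor with many splice forms and is best known from the growth and guidance of axons.

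The strongest sites in the loci of kirre and Ten-a lay inside introns. The 101 bases centred on the summits of 9 sites are given to show the DNA at the strongest sites beside that at start sites. They are the 4 strongest of kirre, the 3 strongest of Ten-a, and the sites that lay at a start site of the gene itself, 1 for Ten-a and 1 for Ten-m. Sequences are from the NCBI copy of the dm6 assembly, plus strand, 5′ to 3′, and capitals mark the longest uninterrupted run of A and T.
kirre X:3097151-3097251: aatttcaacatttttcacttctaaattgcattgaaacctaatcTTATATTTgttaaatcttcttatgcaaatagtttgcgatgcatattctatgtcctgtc
kirre X:2985325-2985425: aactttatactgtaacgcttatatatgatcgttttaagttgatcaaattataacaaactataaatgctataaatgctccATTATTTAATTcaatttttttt
kirre X:3046120-3046220: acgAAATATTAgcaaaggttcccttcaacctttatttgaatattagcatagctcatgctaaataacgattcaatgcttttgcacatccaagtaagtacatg
kirre X:3018814-3018914: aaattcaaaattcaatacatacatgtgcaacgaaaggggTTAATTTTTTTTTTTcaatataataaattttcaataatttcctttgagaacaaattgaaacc
Ten-a X:12202354-12202454: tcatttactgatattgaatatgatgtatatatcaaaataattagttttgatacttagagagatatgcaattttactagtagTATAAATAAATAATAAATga
Ten-a X:12223015-12223115: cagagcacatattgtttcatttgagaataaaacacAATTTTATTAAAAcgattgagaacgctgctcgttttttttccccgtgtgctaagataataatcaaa
Ten-a X:12225395-12225495: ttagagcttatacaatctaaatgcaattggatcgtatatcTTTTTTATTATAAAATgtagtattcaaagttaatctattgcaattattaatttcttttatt
Ten-a X:12203745-12203845: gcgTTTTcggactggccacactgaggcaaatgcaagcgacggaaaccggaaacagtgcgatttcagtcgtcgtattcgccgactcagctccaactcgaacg
Ten-m 3L:22408133-22408233: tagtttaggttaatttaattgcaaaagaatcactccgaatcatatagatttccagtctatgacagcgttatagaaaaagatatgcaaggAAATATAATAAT

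The strongest of these, kirre X:3097151-3097251, had a share of A and T of 72.3%, and the strongest of Ten-a, X:12202354-12202454, of 81.2%. The site of Ten-a X:12203745-12203845 stood apart. It lay at a start site, its share of A and T was 44.6%, and its longest A/T run was 4 bases. Other start sites did not share this. The site of Ten-m had 72.3%, and those in the kirre locus at the starts of Syx4, CG32795 and N had 74.3%, 71.3% and 72.3%. Over all 43 sites of the 6 loci in the thresholded list the median share was 72.3%, ranging from 44.6% to 83.2%. The median over all 6154 sites of that list was 71.3%. The share of A and T was under 60% at 4 of 43 sites (9.3%), against 806 of 6154 (13.1%). On either strand, GAGAG, the core of the element bound by the GAGA factor, occurred at 4 of 43 sites (9.3%), against 449 of 6154 (7.3%). These 4 were 3 intronic sites of Ten-a and the 1 site of hbs. CAGGTAG, the element of the early activator Zelda, occurred at 0 of 43 sites against 18 of 6154 (0.292%). CATATG, a 6-base E-box, occurred at 0 of 43 sites against 243 of 6154 (3.95%). At these low shares in the whole list, 0 among 43 sites tells little.

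Each binding site is described by its summit, the single base at which the authors placed the peak of signal. The stricter of the deposited lists held 6154 peaks thresholded by IDR (irreproducible discovery rate, a way to set a limit from how well ranks agree between replicates). These were the 6154 peaks of highest signal in the list made from both replicates pooled, so a rank of 6154 or better in that list is what placed a summit in the IDR list. The pooled list and the list of each replicate held 30000 peaks each. The read depth behind them is unknown. A locus is the gene span with 2 kb added on each side, and ranks count from 1 for the highest signal. Signal has no stated unit, so it is compared within a list.

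The IDR list had a summit in 4 of the 6 loci, against 38.2% of all coding genes. It had 5 or more in 2 of the 6 loci, kirre and Ten-a, against 1.39% of coding genes. A summit within 500 bp of a start site of the gene itself was present at 2 of 6, Ten-a and Ten-m, against 22.9%. The pooled list had a summit in 6 of 6 loci, against 64.7%. Since kirre and Ten-a were chosen by these counts, and since the loci are long, nothing is read from these shares. In all, the loci held 43 IDR summits and 225 pooled summits, each counted once, with 224 in the list of replicate 1 and 246 in that of replicate 3.

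The order of the loci depended on which list was counted. In IDR summits per 100 kb, kirre led with 6.53, before Ten-a with 5.08, hbs with 2.88 and Ten-m with 0.842, while rst and sns had 0. Among the 6154 strongest peaks of each replicate alone, kirre had 6.78 in both replicates. Ten-a had 3.38 in replicate 1 and 5.08 in replicate 3, and hbs 2.88 and 5.76, so the replicate ranges of Ten-a and hbs overlapped. The value of 5.76 for hbs rests on 2 summits under 500 bp apart, which matched the pooled summits at 15034942 and 15035142. The overlap depends on counting these 2 apart. In pooled summits per 100 kb the order was rst with 65.6, hbs with 43.2, Ten-m with 37.0, kirre with 27.1, Ten-a with 19.3 and sns with 1.62. Close pooled summits were counted apart, since merging those under 500 bp apart was tried for the IDR list alone. The loci with most strong summits were thus not those with most summits for their length.

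**Figure D1:**
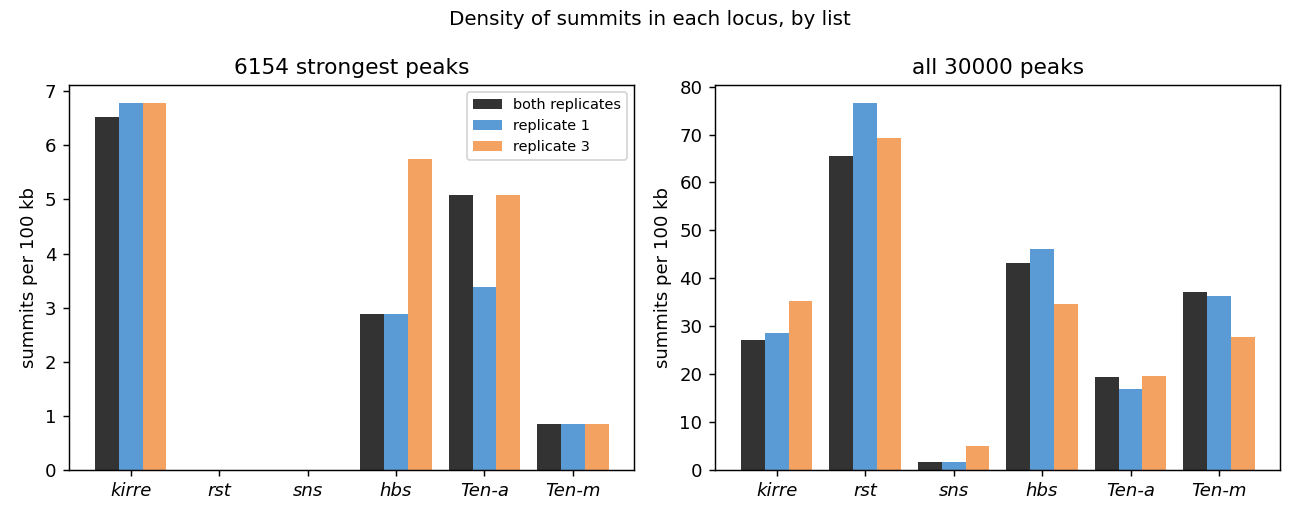
Summits per 100 kb (y axis) in each of the 6 loci (x axis), among the 6154 strongest peaks (left) and among all 30000 peaks (right), for both replicates together and each replicate alone. kirre stands first on the left with 6.53, and rst first on the right with 65.6.

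kirre (FBgn0028369) spans X:2740384-3134532 on the plus strand, 394.1 kb, with 7 coding transcripts from 6 start sites. Its locus held 26 IDR summits, more than any other coding gene. Each replicate alone had 27 in the locus among its 6154 strongest peaks. The pooled list had 108, replicate 1 had 114 and replicate 3 had 140. Among the 100 coding genes nearest to kirre in length, 91.63 to 434 kb, the median was 2 IDR summits and 0 of 100 had 26 or more. Counted per 100 kb, 18 of those 100 were at or above kirre. The 3 genes nearest in length, CG17684, DIP-lambda and lovit, had 0 summits in all 4 lists. Whether reads could be placed uniquely in these 3 genes was not examined. Arm X as a whole had 4.75 IDR summits per 100 kb, against 6.53 in kirre.

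**Figure D2:**
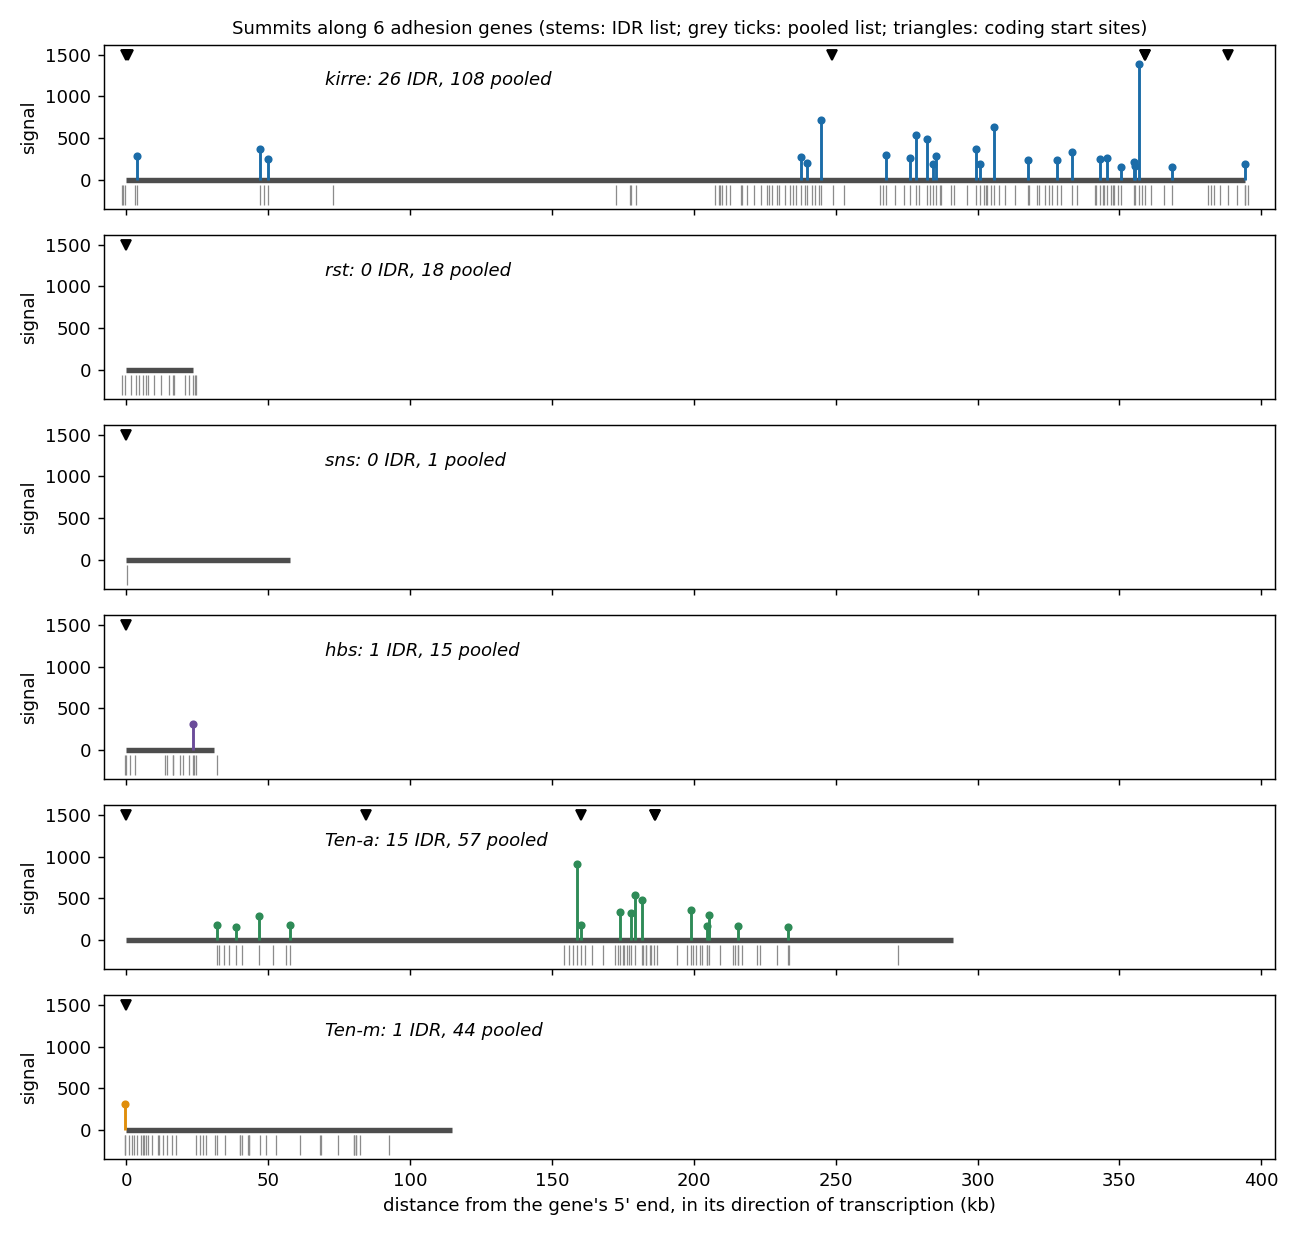
Position of each summit (x axis, kb from the 5′ end of the gene in its direction of transcription) and its signal in the IDR list (y axis, authors' units) along the 6 genes, with pooled summits as grey ticks and start sites of coding transcripts as triangles. Of the 26 IDR summits of kirre, 3 lie to the left of a 188.2 kb gap, and the 15 of Ten-a form 2 groups 101.1 kb apart.

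The summits of kirre were not spread evenly. The first 3, at 2744229, 2787480 and 2790158, lay in intron 2 of the transcript kirre-RF and were followed by 188.2 kb with no IDR summit. That gap held 19 coding genes and 25 pooled summits, the best of which ranked 6258. Then 22 of the 26 (84.6%) fell between 2978321 and 3109099, a stretch of 130.8 kb that makes up 32.8% of the locus. Its density was 16.8 per 100 kb. The ends of the stretch were set at the first and last of these 22 summits, which raises its density by construction. In replicate 1 alone 22 of 27 strong summits fell there, and in replicate 3 alone 19 of 27. Between neighbouring summits the median gap was 4.93 kb, with 13 of 25 gaps under 5 kb and 4 over 20 kb. The closest pair, at 3095637 and 3095836, was 199 bp apart, with pooled signals of 217.1 and 163.0.

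Most of the summits lay in 1 intron. Intron 5 of kirre-RF, 117.7 kb long, held 19 IDR and 57 pooled summits. Intron 3, with 132.0 kb, held 3 IDR and 33 pooled summits, and intron 2, with 121.5 kb, held 3 and 6. Replicates 1 and 3 had 60 and 68 summits in intron 5, 37 and 39 in intron 3, and 7 and 20 in intron 2. Intron 5 had the most in each list, and between the 2 replicate lists the count in intron 2 differed most. Set against the start sites, 18 summits fell in the 110.5 kb from the start of kirre-RG to those of kirre-RC and kirre-RD, 16.3 per 100 kb. The 248.7 kb upstream of it, from the starts of kirre-RB, kirre-RE and kirre-RF, held 6 at 2.41 per 100 kb. The 29.1 kb downstream, up to the start of kirre-RA, held 1. The replicates alone gave 19 and 16 in the dense stretch, and 7 and 8 in the stretch upstream.

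**Figure D3:**
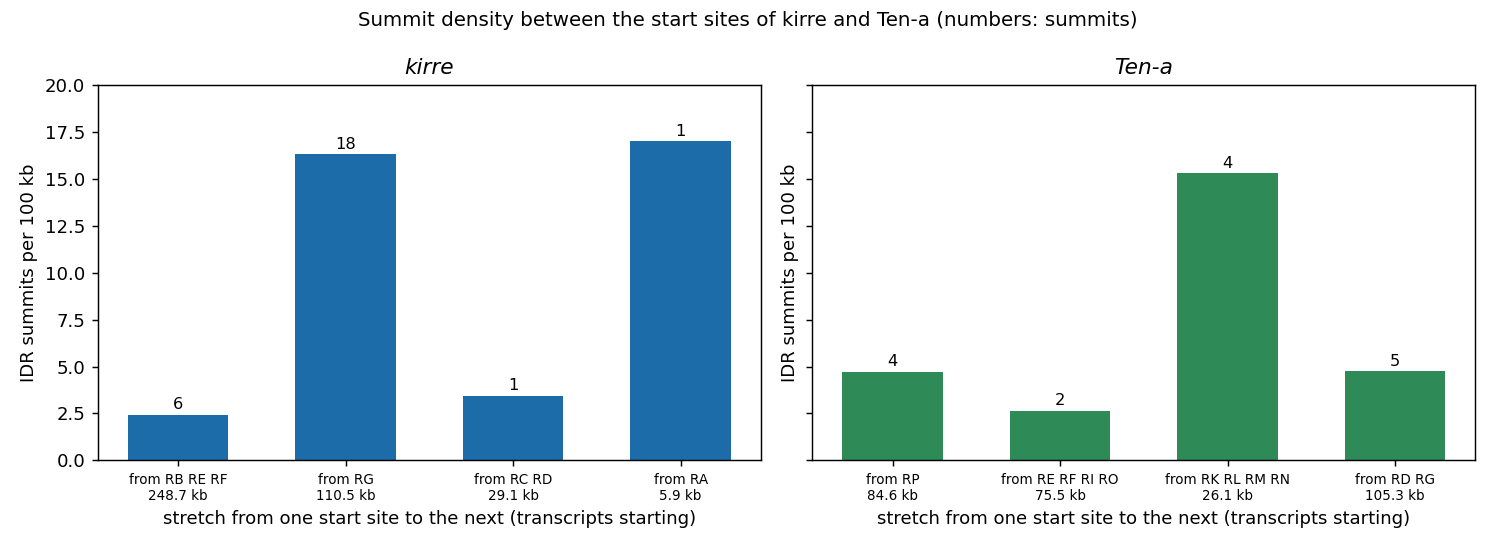
IDR summits per 100 kb (y axis) in the stretches from one start site to the next (x axis, named by the transcripts that start there) of kirre and Ten-a, with the number of summits above each bar. The stretch from kirre-RG reaches 16.3 per 100 kb and that from Ten-a-RK to Ten-a-RN 15.3, and the bar from kirre-RA rests on 1 summit in 5.9 kb.

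The strongest site of kirre, at 3097201, had a pooled signal of 1392.6 and ranked 227. It ranked 240 with a signal of 669.8 in replicate 1, and 215 with 736.7 in replicate 3. It lay in the same intron, 2349 bp upstream of the start of kirre-RC. The next, at 2985375, had a signal of 721.4 and ranked 813, with 702 in replicate 1 and 960 in replicate 3. It lay 3676 bp upstream of the start of kirre-RG. Those at 3046170 and 3018864, with signals of 634.0 and 530.5, ranked 1002 and 1293. Over both replicates the ranks of these 4 ran from 215 to 1322. No IDR summit lay within 500 bp of any of the 6 start sites of kirre, and 2349 bp was the shortest distance. The pooled list did have weak summits there, 4 bp from the start of kirre-RC at rank 24684 and 44 bp from that of kirre-RA at rank 22674.

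Some positions were shared with other genes. Of the 26, 22 lay at no other coding gene. The nearest coding start site was one of kirre for 13 of the 26, and one of another gene for the rest. Within intron 5, the summit at 3068489 was 927 bp from the start of CG4116. To which gene such summits belong was not tested. The summit at 2744229, signal 285.4, was 153 bp from the start of Syx4, a syntaxin gene that overlaps the 5′ end of kirre on the other strand. Those at 2787480 and 2790158, signals 363.1 and 244.2, lay in or at the start of CG32795, a gene nested in the same intron. The last, at 3134513, signal 183.6, lay in the final exon of kirre and also 357 bp from the start of N, the gene of the receptor Notch. N begins 338 bp past the end of kirre and had 4 summits in its own locus. kirre overlaps 22 other coding genes, among them the eye pigment transporter gene w, in whose span there was no IDR summit and no pooled summit. The summit at 3058177 lay in an annotated transposable element. Reads at such repeats can come from more than 1 place.

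rst (FBgn0003285) spans X:2950399-2973834 on the minus strand, 23.4 kb, and lies wholly inside kirre on the opposite strand, so its summits are also summits of the kirre locus. It had 0 IDR summits, and 0 among the 6154 strongest of either replicate. Weaker summits were dense. The pooled list had 18 in its locus, replicate 1 had 21 and replicate 3 had 19, and the pooled density of 65.6 per 100 kb compares with 22.9 on arm X. Among the 100 genes nearest to it in length the median was 7.5 pooled summits, 15 had 18 or more, and 38 had 0 IDR summits. The 3 nearest in length differed widely: Usp10 had 2 IDR and 13 pooled summits, and Myo28B1 and Dhc1 had 0 and 0.

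The strongest pooled summit in rst, at 2951810 in its 3′ UTR, had a signal of 131.2 and ranked 6580. It was therefore close to the limit of 6154, with rank 8490 in replicate 1 and 6164 in replicate 3. The next 3 ranked 9262, 9569 and 9649, and 11 of the 18 ranked past 20000. The nearest IDR summit, at 2978321 with a signal of 271.8, lay 4487 bp upstream of the rst start site and inside kirre. The 15.2 kb between the start of rst and the start of kirre-RG, which point away from each other, held 3 IDR summits, also 3 in each replicate alone, and 10 pooled summits. These 3 are counted for kirre, and to which of both genes they belong was not tested.

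sns (FBgn0024189), the partner on the facing cell, spans 2R:8798489-8856091 on the plus strand, 57.6 kb. It had 0 IDR summits and a single pooled summit, at 8798850, 361 bp downstream of its start. That summit had a signal of 34.7 and a rank of 21902. It had no match in replicate 1 and a match at rank 13571 in replicate 3. Replicate 1 had 1 other summit in the locus, at 8802073 with rank 14853, and replicate 3 had 3, ranked 13571, 20489 and 21067. The nearest IDR summit was 74282 bp from its start. Among the 100 genes nearest to it in length, 33 had 0 IDR summits and 25 had at most 1 pooled summit, and the median was 9 pooled summits. Of its nearest in length, ths, an FGF gene, had 6 IDR and 29 pooled summits, GEFmeso had 2 and 28, and axo had 0 and 0.

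hbs (FBgn0287864), the paralog of sns, spans 2R:15011396-15042134 on the plus strand, 30.7 kb, and had more in every list. Its 1 IDR summit, at 15034942 in intron 1 and 23546 bp from the start site, had a pooled signal of 311.7 and ranked 2587. It ranked 2790 with a signal of 160.1 in replicate 1, and 2486 with 158.1 in replicate 3. The start of another coding gene lay nearer to this summit, at 10103 bp. The pooled list had 15 summits in the locus, replicate 1 had 16 and replicate 3 had 12, and 12 of the pooled summits lay in intron 1, which is 24.1 kb long. Weak pooled summits lay upstream of its start, at 224 bp with rank 11375 and at 431 bp with rank 10516, the first with no match in replicate 3. hbs and sns thus stood at 43.2 and 1.62 pooled summits per 100 kb. The like-length genes of hbs had a median of 7 pooled summits, and 32 of 100 had 15 or more. Its nearest in length were Dscam2 with 0 IDR and 0 pooled summits, PMCA with 0 and 8, and raw with 1 and 16.

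**Figure D4:**
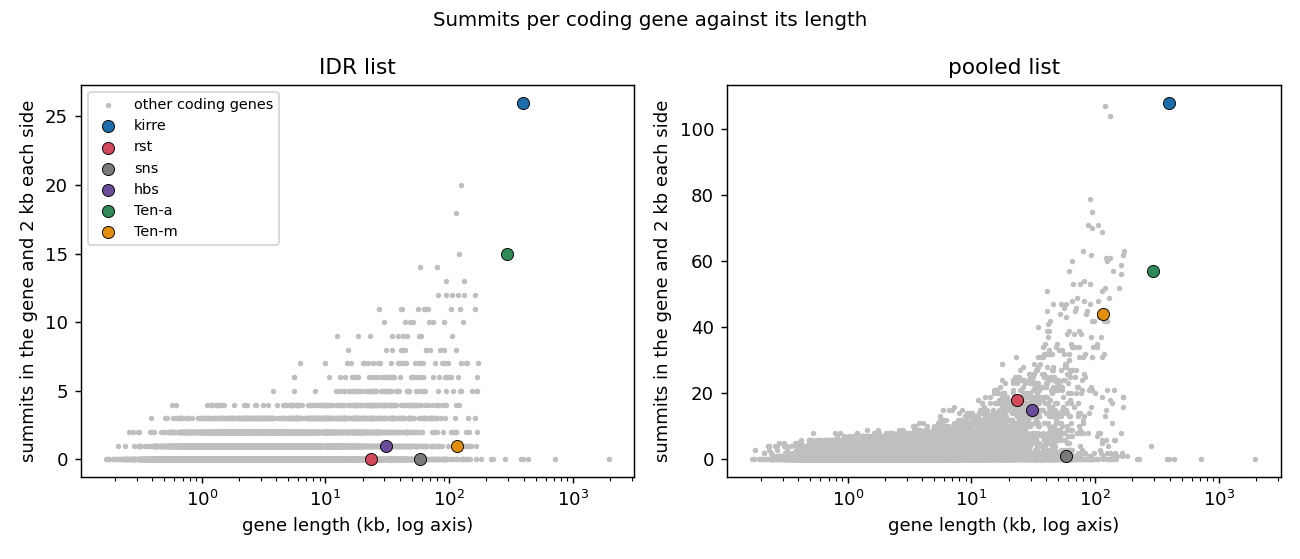
Summits in the locus (y axis) against gene length (x axis, kb, log scale) for every coding gene (grey) and the 6 genes (coloured), in the IDR list (left) and the pooled list (right). kirre is highest in both panels with 26 and 108, and sns, at 57.6 kb, lies near 0 in both.

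Ten-a (FBgn0267001) spans X:12043698-12335214 on the plus strand, 291.5 kb, with 11 coding transcripts from 5 start sites, and 10 other coding genes overlap it. Its locus held 15 IDR summits, a number reached by 5 coding genes in all. Replicate 1 alone had 10 among its 6154 strongest and replicate 3 had 15. In full the lists had 57 pooled, 50 in replicate 1 and 58 in replicate 3. The 100 genes nearest in length covered the same range as those of kirre, 91.63 to 434 kb, and include genes far shorter than Ten-a. Of these, 4 had 15 or more, and 25 were at or above its 5.08 per 100 kb, which compares with 4.75 on arm X. The 3 nearest in length, bru3, Snap25 and l(3)80Fg, had 0 IDR summits each, with 4, 0 and 0 pooled summits. Here too it was not examined whether reads could be placed uniquely.

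The 15 summits of Ten-a formed 2 groups. For 6 of the 15 the nearest coding start site was one of Ten-a. The first 4, from 12075773 to 12101343, had signals of 150.6 to 292.6 and also lay in the overlapping non-coding RNA gene CR43960. They lay 2497 to 4569 bp from the start of another coding gene, and 26943 to 38758 bp from the nearest start of Ten-a. A gap of 101.1 kb followed, with 3 pooled summits, none better than rank 14539. Within it, intron 3 of Ten-a-RP, 47.8 kb long, had no summit in any of the 4 lists. The other 11 lay from 12202404 to 12276889, and 10 of them in intron 6 of Ten-a-RP, which held 44 pooled summits in 76.7 kb. Between neighbouring summits the median gap was 7.27 kb. From the start of Ten-a-RK, RL, RM and RN to that of Ten-a-RG, 26.1 kb, there were 4 IDR summits, 15.3 per 100 kb, with 4 in each replicate alone and 19 pooled. The 3 other stretches had 2.65 to 4.75 per 100 kb. In the stretch with 2.65, the 2 summits lay at its far end, 1394 bp and 3 bp upstream of the start of Ten-a-RK, RL, RM and RN.

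The strongest site of Ten-a, at 12202404, had a pooled signal of 916.9 and ranked 526. It ranked 550 with a signal of 451.2 in replicate 1, and 544 with 460.0 in replicate 3. It lay 1394 bp upstream of the start shared by Ten-a-RK, RL, RM and RN. The summit at 12203795, 3 bp from that start, was much weaker, with a signal of 175.1 and a rank of 4937, and its replicate ranks were 3966 and 6920. In the stretch that follows, the sites at 12223065 and 12225445 had signals of 541.0 and 478.3, and ranked 1256 and 1503. Other starts of Ten-a had no IDR summit near them. The nearest was 32075 bp from that of Ten-a-RP, 26943 bp from that of Ten-a-RE, RF, RI and RO, and 4478 bp from that of Ten-a-RG. At 12249070, signal 296.1, the summit lay in an annotated INE-1 transposable element.

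Ten-m (FBgn0004449) spans 3L:22293044-22407863 on the minus strand, 114.8 kb, with 1 start site. Its 1 IDR summit, at 22408183, lay 320 bp upstream of that start. The pooled signal was 313.9, at rank 2564. It ranked 2290 with a signal of 185.5 in replicate 1, and 2854 with 139.6 in replicate 3. The gene body held many weak summits instead of strong ones. The pooled list had 44 in the locus, replicate 1 had 43 and replicate 3 had 33. Intron 1, 66.2 kb long, held 32 pooled summits, with 32 in replicate 1 and 28 in replicate 3. Intron 2, 32.3 kb long, held 9, with 9 in replicate 1 and 2 in replicate 3. After the site at the start, the next best pooled summit, at 22400103, had a signal of 96.0 and ranked 8784.

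Both teneurins had an IDR summit at a start site of their own. It was the 1 summit of Ten-m, while the other 14 of the 15 in Ten-a were intronic. With 1 summit in Ten-m this is a description, and that summit lies outside the gene span. Among the 100 genes nearest to Ten-m in length, 68 had at least 1 IDR summit and the median was 2, while 21 had 44 or more pooled summits and the median was 9.5. The nearest in length were Pde1c with 1 IDR and 5 pooled summits, CG46467 with 4 and 51, and the ecdysone-response gene Eip75B with 18 and 69.

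Over the 6 loci, 38 of 43 IDR summits were intronic (88.4%) and 5 lay within 500 bp of a coding start site (11.6%). Of all 6154, 35.5% were intronic and 40.4% lay at a start site. These genes are long and hold long introns, which the shares do not correct for. Of those 5 summits, 2 were at the genes' own starts and 3 at the starts of Syx4, CG32795 and N. Of the pooled summits of the loci, 199 of 225 were intronic (88.4%) and 19 lay at a start site (8.44%), against 40.9% and 29.0% of all pooled summits.

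Signal was close to that of the whole list. The median over the 43 summits was 271.8, against 268.4 over all IDR summits. It was 256.9 in kirre, from 150.6 to 1392.6, with 12 of 26 in the upper 3077 ranks. In Ten-a it was 292.6, from 150.6 to 916.9, with 8 of 15 there. Both loci had summits at either side of the limit of the list. In kirre the weakest inside it, at 3109099, had a signal of 150.6 and rank 5735, and the strongest outside it, at 3031957, 137.8 and rank 6251. In Ten-a these were at 12082456 with 150.6 and rank 5731, and at 12076470 with 132.8 and rank 6496.

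Both replicates had a summit within 100 bp among their own 6154 strongest for 32 of the 43 (74.4%, Wilson 95% interval 59.8 to 85.1), against 71.3% (70.2 to 72.4) of all IDR summits. The interval for the 43 covers the value of the whole list. In kirre these were 21 of 26 (80.8%, 62.1 to 91.5), and in Ten-a 9 of 15 (60%, 35.7 to 80.2). In Ten-a, replicate 1 matched 10 of 15 (66.7%, 41.7 to 84.8), whereas replicate 3 matched 14 of 15. The interval for replicate 1 contains its share over all IDR summits, 83.7%. None of the 43 lacked a match in both replicates. The intervals cover counting error alone, and neighbouring summits of a gene are not independent. IDR summits come from both replicates, so such support is partly fixed by the selection.

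Where both full lists had a match, which was so for 42 of the 43, ranks followed each other, with a Spearman rho of 0.75 across summits from the same pair of libraries. Ranks were within 2-fold of each other for 36 of 42, and 30 stood higher in replicate 3. These values were not computed over the whole IDR list, so they are not read as a trait of these loci. The widest gaps were at 3109099 in kirre, with rank 10641 in replicate 1 and 4311 in replicate 3, and at 12082456 in Ten-a, with 9417 and 4316. The summit at 12101343 in Ten-a had no match in replicate 1 and rank 4592 in replicate 3.

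**Figure D5:**
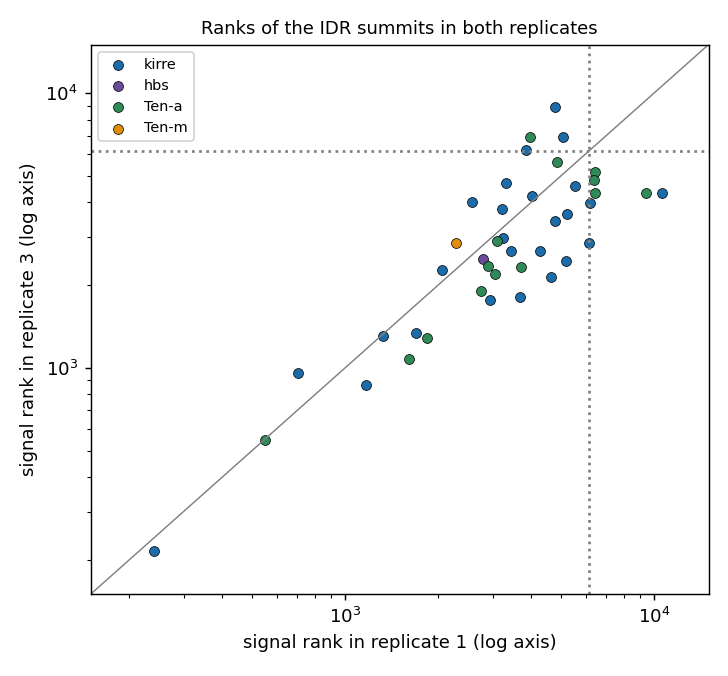
Signal rank in replicate 1 (x axis, log scale) and replicate 3 (y axis, log scale) of the 42 IDR summits with a match in both full lists, coloured by gene, with the diagonal in grey and rank 6154 dotted. Points below the diagonal, 30 of 42, ranked higher in replicate 3, and the lowest point at the left is the kirre summit ranked 240 and 215.

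Past the limit of the IDR list support was thinner. This is partly fixed in advance, since the pooled list is ranked by signal from both replicates. Full replicate lists are used here, in place of the 6154 strongest peaks of each. With full lists, 97.7% of the IDR summits in the 6 loci had a match in both. Of all pooled summits ranked after 6154, 33.6% had a match in both full replicate lists. The share was 31 of 82 (37.8%) in kirre, 14 of 42 (33.3%) in Ten-a, 11 of 43 (25.6%) in Ten-m, 4 of 14 (28.6%) in hbs, 5 of 18 (27.8%) in rst and 0 of 1 in sns. The Wilson 95% intervals of all 6 contained the share over the whole list. The many weak summits of rst and Ten-m therefore rested on both replicates for 27.8% and 25.6% of their number.

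Genes with related roles, the 6 left out, gave these values. Of 25 myoblast fusion genes, 18 had an IDR summit in their locus (72%) and 11 at a start site (44%), against 38.2% and 22.9% of all coding genes, and the median was 1 against 0. The most were in rols, a scaffold that acts below Kirre, with 7 in 56.6 kb, then the muscle transcription factor gene Mef2 with 5 and siz, an Arf exchange factor gene, with 4. Of 52 cell adhesion genes, 28 had a summit (53.8%) and 10 at a start site (19.2%). The most were in the integrin genes mew, with 10 in 44.1 kb, and if, with 6, and in ed, an immunoglobulin-family adhesion gene, with 8. For mew the replicates alone gave 6 and 11. The genes of both lists are longer than most, with a median of 5.49 kb in the first and 27.1 kb in the other, against 2.17 kb over all coding genes, and longer genes have more room for a summit.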

How the data were processed

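The deposited peak lists of the 2 ChIP-seq replicates are on dm6. File records of the submitters describe a list from each replicate, one from both replicates pooled, and one after an IDR threshold. No aligner or peak caller is named (not given in the sources used here). A signal value for each peak, deposited by the authors on an unstated scale, ranked peaks within a list. The −log10 q value deposited by the authors was 4.33 for every IDR peak, so it could not rank them. Positions are the peak starts plus the authors' deposited summit offset. Chromatin had been sonicated to 200 to 800 bp, per the labels, and the median peak width was 355 bp in the IDR list, 460 bp in the pooled list, 500 bp in replicate 1 and 396 bp in replicate 3.

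Summits were assigned to Ensembl release 115 gene models (BDGP6.54, the dm6 sequence) with Python 3.11.15, pandas 2.3.3 and numpy 2.4.6. Positions count from 1. A locus was the gene span plus 2 kb, a start-site summit lay within 500 bp, and a replicate match within 100 bp. Intervals are Wilson 95% intervals. Counting and matching were tested on simulated data. The genes and lists were chosen with earlier results of these data known. Genes named besides the 6 were those at a summit of their loci, the 3 nearest to each in length, and from each list the 3 with most IDR summits. The genes w and CG4116 were named after their values were seen. With 1 group, no test between conditions was made. Alternatives were the depth of the list, the flank, the merging of close summits, the match rule, the start-site window, what counts as another gene, the number of like-length genes and leaving out a replicate, and, chosen after seeing the data, leaving out summits in transposable elements.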

Additional observations from a re-analysis of the deposited data

How the results depend on the processing

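Of 132 values recomputed under alternatives, 25 moved by more than 1.5 times (counts and densities) or beyond the Wilson interval (shares), and 107 stayed within these limits. The wide limits of small counts hide some shifts. With the 3077 strongest IDR peaks, kirre had 12 summits (3.01 per 100 kb) and Ten-a 8 (2.71). With the 12000 strongest pooled peaks, kirre had 49 (12.3), Ten-a 23 (7.78), hbs 5 (14.4), rst 4 (14.6) and Ten-m 2 (1.68), so the first place in density passed from kirre to rst. These lists hold fewer or more peaks by construction. With a flank of 5 kb, rst had 1 summit (2.99) and Ten-m 2 (1.6), and with the gene span alone Ten-m had 0 (0), since its summit lies outside the span. Leaving out a replicate gave 27 summits in kirre both ways (6.78), 10 to 15 in Ten-a (3.38 to 5.08), 1 to 2 in hbs (2.88 to 5.76), 1 in Ten-m (0.842), and 0 in rst and sns. Without replicate 1, hbs had 2 (5.76), and these 2 lay under 500 bp apart. With all peaks of each replicate in place of the strongest, 97.7% of the summits in the 6 loci had a match in both, 100% in kirre and 93.3% in Ten-a. With a match distance of 50 bp, 62.8% of the 6 loci had one among the strongest, 73.1% in kirre and 40% in Ten-a. The share at a coding start site was 6.98% with a window of 250 bp and 14% with 1000 bp. Merging summits under 500 bp apart left kirre with 25. With other start sites counted to 2000 bp, 21 summits of kirre lay at no other coding gene, and with any annotated gene counted, 11 of Ten-a did. Of 50 or 200 genes nearest in length, 0% had as many as kirre and 4% or 2% as many as Ten-a. Without summits in transposable elements, chosen after seeing the data, kirre had 25 and Ten-a 14. No paired analysis was possible because there was 1 group. Read depth is unknown, so a locus with no summit may hold binding below what the lists contain.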
